A study of Mus musculus with 6 samples.

Results

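The 10 Sox genes described here encode transcription factors that bind DNA through a shared HMG box. They were chosen by name, as Sox4, Sox11 and Sox12 (called neuronal here), Sox1 and Sox2 (progenitor), Sox8, Sox9 and Sox10 (glial) and the SoxD pair Sox5 and Sox6, out of 55413 annotated genes on the assembled mouse chromosomes, of which 21938 code for proteins. H3K79me2, the dimethylated lysine 79 of histone H3, was mapped by ChIP-seq in 2 groups of 2 libraries from the mouse neuroblastoma cell line N2a. In the NPM1 KD group the cells carried an shRNA plasmid against Npm1 (shNPM1), and in the CTR group a control shRNA plasmid (shControl). All cells were kept for 3 days, and for the knockdown experiments the protocol gives a puromycin selection at 9.3 µg/ml. The model is a transient transfection of 1 hairpin into a mixed population of the line, each replicate being its own passage and transfection batch. The comparison asks whether lowering NPM1, a nucleolar chaperone, changed where and how strongly H3K79me2 lay. Peak lists hold no measure of Npm1 RNA or protein, so the depth of the knockdown was not checked here. The paper reports immunoblots of the ChIP-seq replicates with less NPM1 and more H3K79me2 after knockdown.

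H3K79me2 is placed by DOT1L, the only known H3K79 methyltransferase, and lies over the early part of transcribed genes, from the start site into the body. SoxC factors (Sox4, Sox11 and Sox12) act in postmitotic neuronal precursors and in sympathetic neuroblasts, where they switch on neuronal genes. SoxB1 factors (Sox1 and Sox2) keep neural progenitors undifferentiated, SoxE factors (Sox8, Sox9 and Sox10) act in the neural crest and glia, and SoxD factors (Sox5 and Sox6), which lack a transactivation domain of their own, modulate other Sox proteins.

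For each gene the window was the annotated body plus 3 kb upstream (GENCODE M21, mm10). Coverage is the percentage of that window under broad peaks, and fold is the enrichment over background that the peak caller attached to each peak, at the summit for a narrow peak and averaged over the interval for a broad one. The background that explains these folds was 1 value per library, so they carry no visible local correction, and whether the pooled inputs served as its control could not be read from the lists. It ran from a pileup of 7.65 fragments in CTR 2 to 11.9 in CTR 1, and the lowest summits listed held 14 to 22 fragments. CTR 2 was the shallowest library, with 34845 broad peaks against 44228 to 48764 in the others. The mark was present on 10 of 12 sympathetic neuroblastoma markers in every library, as it was on 51.2% of all protein-coding windows. It covered 100% of the windows of Phox2a and Hand2 but only 2.10% to 9.87% of that of Th, and Dbh was among those with no broad peak. Of the markers of other cell types, 0 of 5 fibroblast genes, 1 of 5 myeloid genes (Cd68) and 2 of 5 Schwann and melanocyte genes (Pmel among them) had a broad peak in every library.

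H3K79me2 divided the Sox genes sharply. All 3 neuronal members and 2 of the 3 glial members were covered over most of their windows, whereas Sox1, Sox2, Sox6 and Sox10 were free of broad peaks in all 4 libraries and Sox5 had only a short intronic one. Counting Sox5, 6 of the 10 genes had a broad peak in all 4 libraries, against 30.8% of all gene windows and 51.2% of protein-coding ones. Averaged over the 4 libraries, coverage descended from 100% for Sox4 to 97.9% for Sox8, 93.4% for Sox11, 71.5% for Sox12, 64.6% for Sox9 and 0.0914% for Sox5. The ranges over libraries of neighbours in that order did not overlap, except those of Sox12 (66.0% to 78.6%) and Sox9 (60.6% to 69.2%). Of the 10 further Sox family genes, none had a broad peak in all 4 libraries, and only Sox13 had one at all, in NPM1 KD 1. The plot of coverage by library shows this division.

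**Figure D1:**
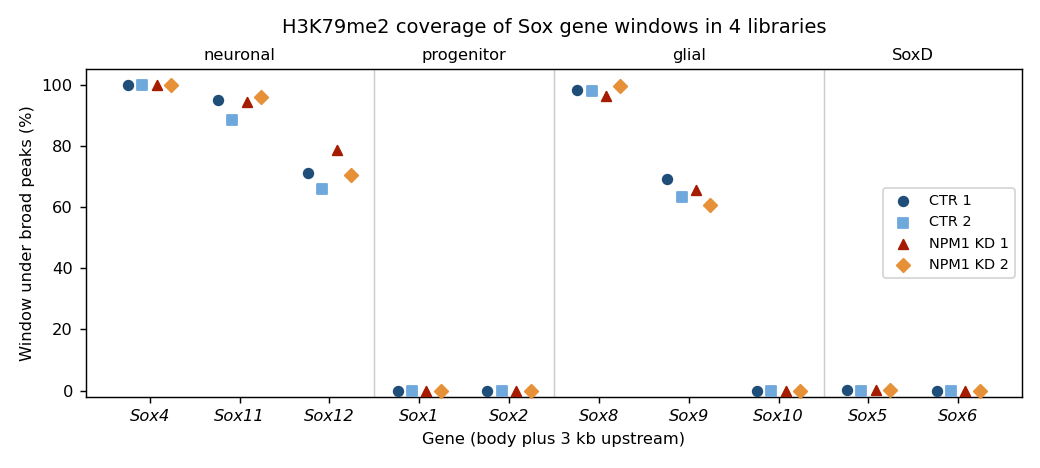
Percentage of each gene's window (body plus 3 kb upstream) under H3K79me2 broad peaks on the vertical axis, with 1 point per library and the 10 Sox genes grouped by role along the horizontal axis. Sox4, Sox11, Sox12, Sox8 and Sox9 sit at 60.6% or above in every library, and the other genes at or near 0.

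Sox4, a single-exon gene that helps to start neuronal differentiation programs, lies at chr13:28948919-28953713 on the minus strand. Its window was covered entirely (100%) in every library, CTR and NPM1 KD alike. The broad peak ran well beyond the gene, from 5.90 to 6.41 kb before the start to 4.21 to 4.32 kb past the annotated end. The lincRNA gene Gm26735 on the opposite strand overlaps 35.3% of this window, and ChIP carries no strand, so signal upstream of Sox4 and signal of Gm26735 cannot be told apart. The highest narrow summit stood in the coding exon in all 4 libraries, 1.14 to 1.77 kb after the start. Its fold was 34.1 and 31.1 in the CTR libraries against 31.4 and 19.5 after knockdown, from summit pileups of 438, 268, 313 and 248 fragments. NPM1 KD 2 therefore stood apart from the other 3 libraries. This was not particular to Sox4. The highest narrow fold of that library was also the lowest of the 4 at the 10 neuroblastoma markers marked in every library.

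Sox11, the closest relative of Sox4 and likewise a single-exon gene, lies at chr12:27334264-27342574 on the minus strand. Coverage was 95.0% and 88.4% in the CTR libraries and 94.4% and 95.8% in the NPM1 KD libraries, so the groups overlapped. Its body was covered entirely in every library, and the difference between libraries lay upstream, where the covered share of the 3 kb was 81.0% and 56.3% in the CTR libraries against 78.9% and 84.1% after knockdown. In CTR 2 a gap split the upstream interval from the one over the gene, while the other 3 libraries held both in 1 broad peak. The highest summit stood in the 3′ UTR, 3.45 to 3.74 kb after the start, at a fold of 20.1 and 19.7 in CTR and 20.9 and 15.5 in NPM1 KD. No other gene overlaps the Sox11 window.

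Sox12, the third SoxC gene, lies at chr2:152393611-152398063 on the minus strand and was the only one of the 5 well-covered genes whose start was bare. The main broad peak began 0.421 to 0.477 kb after the start in all 4 libraries and ended just past the gene. A second, weaker broad peak lay upstream, with its far edge at -3.32 to -3.03 kb from the start and a fold of 1.94 to 2.44 against 6.13 to 9.005 for the main one. Coverage was 71.1% and 66.0% in CTR and 78.6% and 70.3% in NPM1 KD, and these ranges overlapped. The body alone was covered over 89.3% to 90.5%, so most of the spread between libraries came from the upstream interval, which covered 31.3% to 60.8% of the 3 kb. The highest fold was 19.3 and 16.5 in CTR and 20.9 and 11.7 in NPM1 KD.

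**Figure D2:**
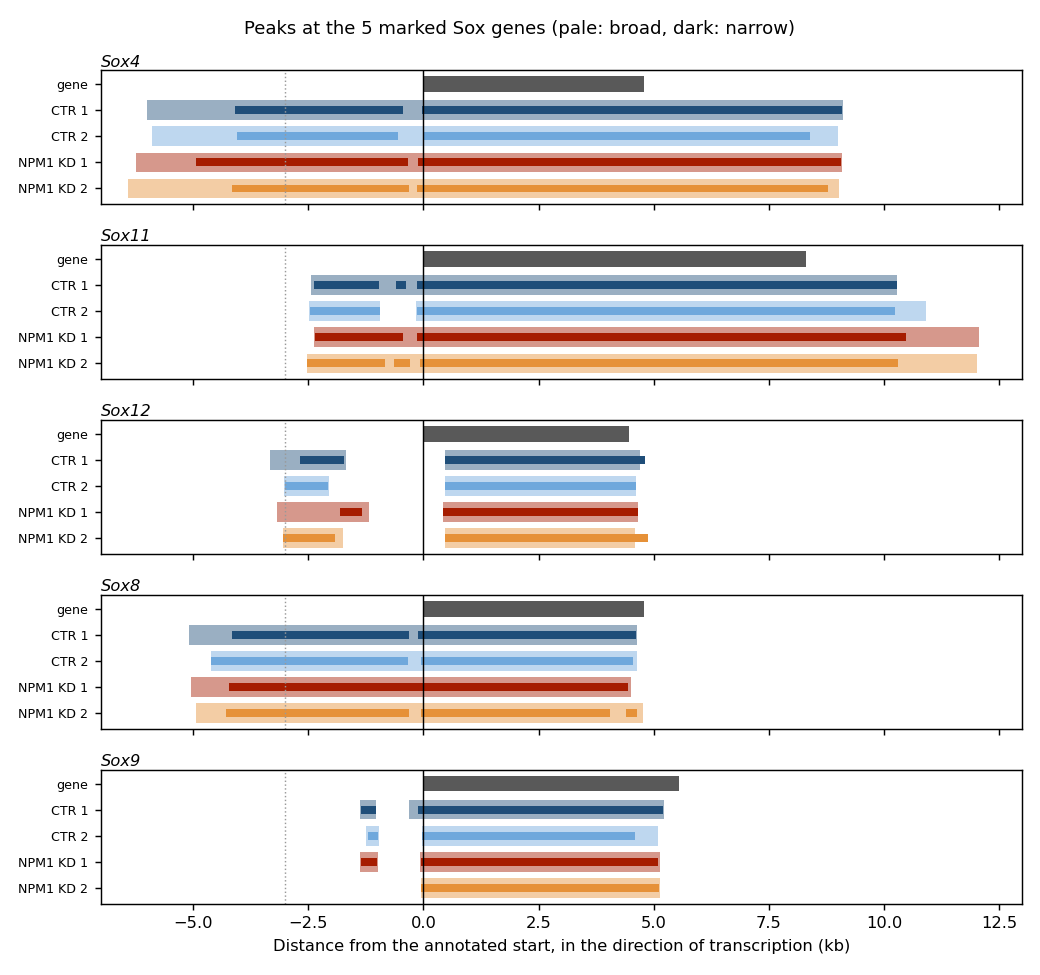
Broad peaks (pale bars) and narrow peaks (dark bars) of each library plotted by distance from the annotated start in kb, oriented in the direction of transcription, with the gene body in grey and the window's upstream limit dotted at 3 kb. The broad peak crosses the start of Sox4, Sox11, Sox8 and Sox9 and begins 0.421 to 0.477 kb after the start of Sox12.

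The sequence just upstream of the start was compared because the mark crossed it at Sox4, stopped short of it in CTR 2 at Sox11 and left it bare at Sox12. RefSeq promoter entries matched 8 of the 10 Sox genes, all but Sox9 and Sox10. Each segment runs from 250 to 61 bases before the RefSeq start (GRCm38.p6, minus strand for all 3 genes), at chr13:28953760-28953949 for Sox4, chr12:27342779-27342968 for Sox11 and chr2:152398107-152398296 for Sox12. Capitals mark matches to the GC box GGGCGG and to the CCAAT box CCAAT on either strand.
Sox4: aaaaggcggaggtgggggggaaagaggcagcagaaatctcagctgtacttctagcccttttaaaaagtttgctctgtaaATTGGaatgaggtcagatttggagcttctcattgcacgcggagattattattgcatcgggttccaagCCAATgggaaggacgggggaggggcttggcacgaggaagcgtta
Sox11: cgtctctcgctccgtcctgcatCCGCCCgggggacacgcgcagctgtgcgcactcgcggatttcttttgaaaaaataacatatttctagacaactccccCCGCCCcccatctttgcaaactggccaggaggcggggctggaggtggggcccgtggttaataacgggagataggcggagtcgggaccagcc
Sox12: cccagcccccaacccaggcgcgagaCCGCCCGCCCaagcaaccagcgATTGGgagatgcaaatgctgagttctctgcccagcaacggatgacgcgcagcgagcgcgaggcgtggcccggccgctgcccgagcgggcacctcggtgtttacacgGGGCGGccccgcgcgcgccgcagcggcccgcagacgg
The Sox4 segment lay under a broad peak over its whole length in 4 of 4 libraries, the Sox11 segment in 3 of 4 and the Sox12 segment in none. GC content rose in the same order, from 50.0% to 61.1% and 73.7%, and the number of CpG dinucleotides was 7 in Sox4, 16 in Sox11 and 27 in Sox12. That order did not extend to Sox8 and Sox6. The Sox8 segment at the same distances had a GC content of 67.4% and was covered entirely in every library. The Sox6 segment, taken at its most upstream RefSeq start, had 38.9% and was bare in every library. The Sox4 segment holds 2 CCAAT boxes and no GC box, the Sox11 segment 2 GC boxes, and the Sox12 segment 3 GC boxes, 2 of which overlap, with 1 CCAAT box. Over the same 190 bases of all 32851 RefSeq promoters, 22.8% held a GC box and 26.7% a CCAAT box. The SOX core ACAAAG, its other form ACAAT and the TATA box TATAAA were also searched on both strands and had no match in the 3 SoxC segments. These matches describe letters only, and their part in the coverage was not tested.

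Among the glial members, Sox8 was covered almost as fully as Sox4. Sox8, a SoxE factor of neural crest and oligodendrocyte development, lies at chr17:25565892-25570686 on the minus strand, and its coverage was 98.1% and 97.9% in CTR and 96.2% and 99.6% in NPM1 KD. The broad peak reached 4.61 to 5.10 kb upstream of the start and ended at -0.30 to -0.03 kb relative to the annotated end. The antisense gene 2810468N07Rik overlaps 42.7% of the window, and signal of that gene and of Sox8 cannot be told apart there. Fold was the lowest of the 5 well-covered genes in every library, at 15.3 and 13.5 in CTR and 11.6 and 9.55 in NPM1 KD. Both NPM1 KD values lay below both CTR values.

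Sox9, the SoxE factor of chondrocytes, neural stem cells and early glia, lies at chr11:112782224-112787760 on the plus strand. Its mark was short and strong. Coverage was 69.2% and 63.2% in CTR and 65.4% and 60.6% in NPM1 KD, with overlapping groups. The broad peak hugged the gene, starting at most 0.323 kb before the start and ending at -0.45 to -0.31 kb relative to the annotated end, and only 1.67% to 22.6% of the upstream 3 kb was covered. A small upstream broad peak of 288 to 385 bp was listed in CTR 1, CTR 2 and NPM1 KD 1 and was absent from the list of NPM1 KD 2. BC006965 on the opposite strand overlaps 32.2% of the window. The highest narrow fold was 26.9 and 25.1 in CTR and 20.8 and 18.4 in NPM1 KD, from summit pileups of 346, 216, 207 and 234 fragments, and both NPM1 KD folds lay below both CTR folds.

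The strongest signal of Sox4, Sox8 and Sox9 stood inside coding sequence in CTR 1, and the bases around that summit are shown to place it. They are given on the coding strand of mm10, with the summit base in capitals, at chr13:28952524-28952624 for Sox4, chr17:25570145-25570245 for Sox8 and chr11:112782850-112782950 for Sox9.
Sox4: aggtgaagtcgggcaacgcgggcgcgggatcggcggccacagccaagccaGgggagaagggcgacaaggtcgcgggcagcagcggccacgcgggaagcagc
Sox8: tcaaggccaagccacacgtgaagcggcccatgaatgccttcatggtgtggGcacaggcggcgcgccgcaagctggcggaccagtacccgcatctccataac
Sox9: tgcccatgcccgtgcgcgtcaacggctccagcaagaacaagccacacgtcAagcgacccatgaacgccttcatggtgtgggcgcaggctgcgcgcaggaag
The Sox8 and Sox9 stretches share a run of 17 bases, gccttcatggtgtgggc, from base 36 in Sox8 and from base 66 in Sox9. The SoxE summits of CTR 1 thus stood close to the same run, which lies in the part of each gene coding for the HMG box. In the other libraries the Sox8 summit stood 0.642 to 0.676 kb after the start, in an intron, and the Sox9 summit between 0.722 and 1.81 kb, in coding exons.

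Sox10, the SoxE factor that specifies Schwann cells, melanocytes and oligodendrocytes, lies at chr15:79154908-79165240 on the minus strand and had no broad or narrow peak in its window in any library. The nearest broad peak began 13.3 to 13.8 kb downstream of its start, past the 3′ end, over Polr2f, a gene for an RNA polymerase subunit. Between 62.9% and 89.0% of the stretch 3 to 10 kb past the end of Sox10 was covered, so the unmarked gene lay beside a marked one.

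The progenitor members were unmarked. Sox1, at chr8:12395295-12400126 on the plus strand, and Sox2, at chr3:34650405-34652461 on the plus strand, had 0% coverage in all 4 libraries on both the broad and the narrow lists. The nearest broad peak to the start of Sox1 lay 226 to 227 kb downstream, at Tubgcp3, and that of Sox2 lay 568 to 569 kb upstream, at Dnajc19. The transcripts Sox1ot and Sox2ot overlap the whole of the respective windows on the same strand.

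The segment upstream of the Sox2 start, taken at the same distances on the plus strand (chr3:34649745-34649934), is shown as an unmarked GC-rich counterpart to Sox12. Capitals mark the GC box and the SOX core ACAAAG on either strand.
Sox2: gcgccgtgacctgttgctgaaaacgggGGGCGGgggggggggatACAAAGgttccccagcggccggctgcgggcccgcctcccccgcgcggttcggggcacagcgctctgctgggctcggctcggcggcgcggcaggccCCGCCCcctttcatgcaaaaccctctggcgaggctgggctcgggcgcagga
It holds 2 GC boxes, 1 SOX core and 22 CpG dinucleotides at a GC content of 75.3%. A SOX core was present in the same 190 bases of 13.0% of all RefSeq promoters. Both the Sox12 and the Sox2 segment were bare of peaks, although the Sox12 body behind it was covered over 89.3% or more.

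The SoxD genes are by far the longest members. Sox5, at chr6:143828425-144781977 on the minus strand, spans 954 kb and had 1 broad peak per library, about 280 kb into the gene, in an intron. That peak was 1085 and 197 bp wide in the CTR libraries, against 943 and 1274 bp after knockdown. Its fold was 2.28 and 2.41, then 2.44 and 2.28. The geometric mean of these placed it in the weakest decile of the windows with a broad peak in every library. The start of Sox5 was bare, its nearest broad peak lying 218 to 220 kb upstream at Bcat1. Sox6, at chr7:115470872-116038796 on the minus strand, had no peak in its window, and the nearest broad peak stood 34.1 to 53.3 kb upstream. Absence here means that no interval passed the peak caller's threshold at these depths, and a longer gene offers more room for a weak interval.

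Genes that act with the Sox members were marked unevenly. Of 12 genes listed as partners or targets of SoxC factors, 4 had a broad peak in every library. Tubb3, the neuronal beta-tubulin, was covered over 95.6% on average, Stmn2, a microtubule regulator of axons, over 82.8%, and the neuronal RNA-binding protein genes Elavl3 and Elavl4 over 74.97% and 60.96%. Dcx, Tead2, Neurog1, Neurog2, Neurod1, Pou3f2 and Pou3f3 were among those with none. Of 12 progenitor genes, 7 had a broad peak in every library, led by the intermediate filament gene Vim at 75.4%, the RNA-binding protein gene Msi1 at 65.6% and the Notch effector Hes5 at 51.2%. Of 11 glial genes 2 did, among them Mbp at 1.44%. These counts stand beside the 51.2% of all protein-coding windows that had a broad peak in every library. With lists this short, nothing particular to a list is read from them.

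After NPM1 knockdown, the coverage of no single Sox gene separated the groups. Sox1, Sox2, Sox6 and Sox10, with no broad peak in any library, had no coverage to compare. None of the other 6 genes had both NPM1 KD libraries above or both below the CTR libraries in broad coverage. Over all windows with a broad peak in at least 1 library, 38.7% were higher and 3.14% lower. Tested by limma on log2 covered length over 18781 windows, 0.0266% of windows were called and 0 of the 6 tested Sox genes, with adjusted p-values from 0.679 to 1 and 0 unadjusted ones under 0.05, against 13.2% of all windows tested. The estimated log2 change was 0.10 ± 0.07 (SE) for Sox12, 0.05 ± 0.04 for Sox11, -0.06 ± 0.06 for Sox9, 0 for Sox4, -0.0016 ± 0.02 for Sox8 and 0.41 ± 0.37 for Sox5. The median change was 0.02 over the 6 genes and 0.06 over all windows. Sox4 could not rise, being fully covered in CTR. Total length under broad peaks was 236 and 223 Mb in the CTR libraries and 253 and 244 Mb in the NPM1 KD libraries, and its part in these values was not tested.

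On the narrow lists, which are stricter about gaps, Sox4 and Sox11 separated. Narrow coverage of Sox4 was 94.8% and 92.7% in CTR and 97.2% and 97.7% in NPM1 KD. That of Sox11 was 89.1% and 88.2% in CTR and 91.6% and 91.9% in NPM1 KD. Both genes were thus higher in both NPM1 KD libraries, by 3.69 and 3.12 percentage points, against 35.9% of all windows with a narrow peak that were higher in that way. An exact permutation test of 2 against 2 libraries (two-sided) cannot give a p below 0.333, the value reached by each.

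As a group, the neuronal genes averaged 88.7% and 84.8% coverage in CTR and 91.0% and 88.7% in NPM1 KD. The glial genes averaged 55.7% and 53.7% in CTR and 53.9% and 53.4% in NPM1 KD, which includes the bare Sox10. The neuronal excess over the glial mean was 32.01 ± 1.32 percentage points (SD, n = 2) in the CTR libraries and 36.2 ± 1.30 after knockdown (SD, n = 2), a difference of 4.20 points with no overlap between groups. That difference rested on the upstream part of the windows, being 0.455 points over the gene bodies alone, where the groups overlapped. It was 1.72 points on the narrow lists, again with overlap. The members were named with earlier results known, and no test is attached to this score.

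The broad interval at the start was wider in both NPM1 KD libraries at 2 genes. At Sox4 it was 15113 and 14901 bp wide in the CTR libraries, against 15330 and 15430 bp after knockdown. At Sox11 it was 12703 and 11060 bp against 14427 and 14526 bp, a mean difference of 2595 bp. Each gave p = 0.333 by exact permutation, the smallest possible. The groups overlapped at Sox8, with 9740 and 9245 bp against 9532 and 9691 bp, and at Sox9, with 5551 and 5111 bp against 5198 and 5177 bp. Among protein-coding genes with such an interval in every library, 43.8% were wider in both NPM1 KD libraries. The Sox11 interval of CTR 2, the shallowest library, was the one cut by the upstream gap. With narrow peaks merged across gaps of 1 kb, Sox4 no longer separated (15084 and 14281 bp against 15064 and 15068 bp), and the Sox11 difference was 914 bp.

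Peak fold, which is relative to the background of its own library, differed in the opposite direction. The highest broad fold of all 5 well-covered genes was lower in both NPM1 KD libraries than in both CTR libraries. It was 9.49 and 10.9 in CTR against 7.91 and 7.58 in NPM1 KD at Sox11, and 12.6 and 13.4 against 10.9 and 9.38 at Sox9. At Sox4 the values were 9.21 and 9.88 against 8.51 and 7.76. At Sox12 they were 9.005 and 8.32 against 8.19 and 6.13, and at Sox8 5.88 and 5.20 against 5.11 and 4.13. Only Sox5 overlapped. Each of the 5 reached p = 0.333 by the exact permutation test, the smallest that 2 against 2 libraries allow. Over all windows with a broad peak in every library, 38.8% were lower in this way and 10.1% higher. After quantile normalization of the libraries, Sox11, Sox8 and Sox9 remained separated, against 20.6% of all windows.

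**Figure D3:**
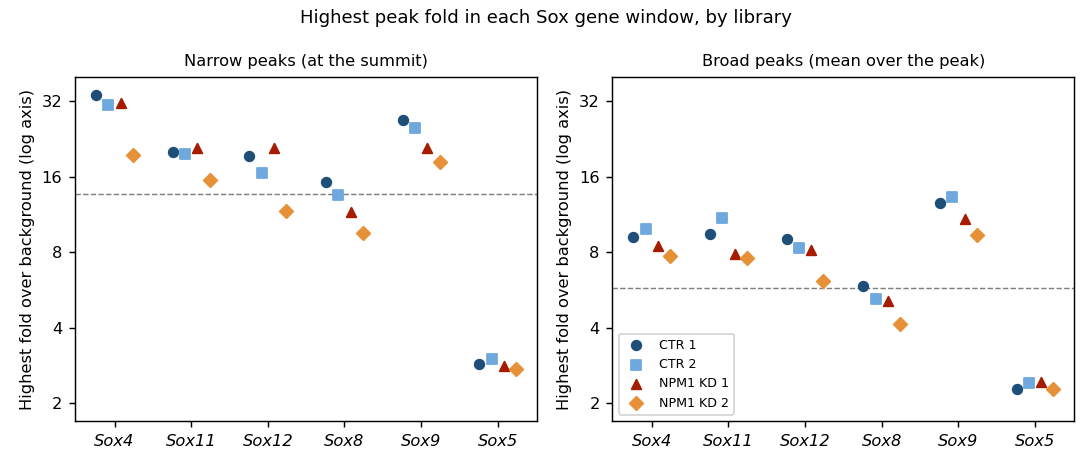
Highest narrow fold (left) and highest broad fold (right) in each window on log axes, with 1 point per library, for the 6 Sox genes with peaks. Dashed lines mark the medians over all windows with a peak in every library, 13.7 for narrow and 5.74 for broad. In the right panel both NPM1 KD points lie below both CTR points for every gene except Sox5.

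Strongly marked windows in general had lower broad folds after knockdown. Fold is relative to the background of its own library, so it gives no absolute amount of the mark. The paper's immunoblots gave a higher global H3K79me2 level after knockdown, and these measures were not compared here. The windows with a broad peak in every library were ranked by fold. The log2 change of the highest broad fold had a median of 0.01 in the weakest decile and of -0.18 in the strongest. The share of windows with both NPM1 KD libraries lower was 14.0% in the weakest decile, which holds Sox5, 29.1% in the decile of Sox8, 58.3% in that of Sox12, 69.0% in that of Sox4 and Sox11 and 73.9% in that of Sox9. Beside medians of -0.03, -0.11, -0.14 and -0.18 in the deciles of Sox8, of Sox12, of Sox4 with Sox11 and of Sox9, the Sox genes had log2 changes of -0.27 (Sox8), -0.29 (Sox12), -0.23 (Sox4), -0.40 (Sox11) and -0.36 (Sox9). Within its own decile, the change of Sox11 stood at the 4.04 percentile, those of Sox8, Sox12 and Sox9 at the 6.20, 9.01 and 9.24 percentile and that of Sox4 at the 18.3 percentile. By highest narrow fold the order differed, with Sox11 at the 43.3 and Sox12 at the 29.3 percentile of their decile. Sox4, Sox9 and Sox8 stood at the 7.14, 3.08 and 1.92 percentile of theirs. These ranks are descriptions, with no test. The broad fold is a mean over the interval, and at Sox11 the interval with the highest fold, in CTR 2, was also the shortest of the 4.

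**Figure D4:**
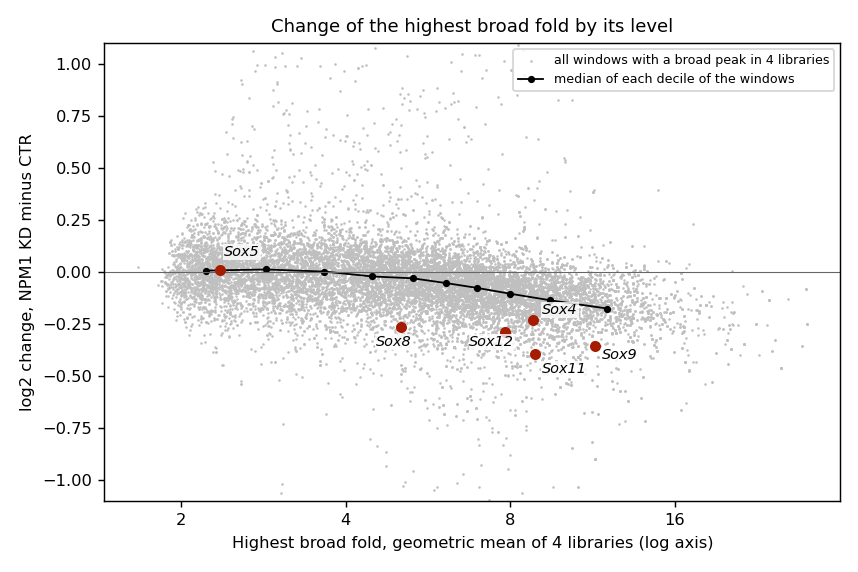
log2 change of the highest broad fold (NPM1 KD minus CTR, no centring) against its geometric mean over the 4 libraries on a log axis. Grey points are all windows with a broad peak in every library, 64 of which lie beyond the plotted range, the black line joins the medians of deciles and red points are the Sox genes. The line falls from 0.01 to -0.18, and 5 of the 6 Sox genes lie below it.

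At the summits of narrow peaks the picture was less uniform. Sox8, Sox9 and Sox5 had both NPM1 KD values below both CTR values, against 28.9% of windows with a narrow peak in every library. For Sox5 the highest peaks lay at unlike places, 898 kb into the gene in CTR 2 and about 281 kb in the other libraries. At the Sox5 narrow peak near 281 kb the groups overlapped. Its fold was 2.87 and 2.54 in CTR and 2.80 and 2.74 in NPM1 KD. The narrow folds of Sox4, Sox11 and Sox12 overlapped between groups. NPM1 KD 2 lay below both CTR libraries at each of these genes. NPM1 KD 1 lay between the CTR libraries at Sox4 and above both at Sox11 and Sox12. In limma on median-centred log2 fold, 0.226% of 17231 windows were called and 0 of 6 Sox genes, of which 2 (Sox8 and Sox9) had an unadjusted p under 0.05, as did 7.67% of all windows tested. The estimates were -0.39 ± 0.12 (SE) for Sox8 and -0.35 ± 0.12 for Sox9, both with an adjusted p of 0.622, and -0.34 ± 0.18 for Sox4, with an adjusted p of 0.636. Those of Sox12, Sox11 and Sox5 were -0.13, -0.08 and -0.03, with adjusted p-values of 0.848 or more. Leaving out NPM1 KD 2 brought Sox4 to -0.10 and turned Sox11 to 0.027 and Sox12 to 0.18, whereas Sox8 and Sox9 stayed at -0.36 and -0.37. A miss of the threshold with 2 libraries a group does not show that fold was equal.

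The genes most like each SoxC gene were picked by the distance over 8 values, the narrow folds and the covered lengths of the 4 libraries. Serp1 and Med28 were nearest to Sox4, Cyhr1 and Tmem183a to Sox11, and Npm3 and Trp53rkb to Sox12. Serp1, for example, had a highest narrow fold of 31.6 and 28.6 in CTR and of 30.0 and 20.2 in NPM1 KD. Npm3 had 18.5 and 17.5 in CTR and 20.4 and 12.1 in NPM1 KD. Their low value in NPM1 KD 2 follows from how they were picked. The neuroblastoma markers with broad peaks, which were listed by name, were also lowest in that library by narrow fold.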

How the data were processed

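H3K79me2 ChIP DNA was sequenced as paired 51 bp reads on a HiSeq 3000. According to the labels and methods, the authors trimmed reads (Trimmomatic 0.38), aligned them to mm10 with Bowtie2 2.3.4.1 and called peaks in each library with MACS2 (2.2.6 in the submitters' processing notes, while the methods name another release). The deposited broad and narrow lists give, per peak, a score, the fold enrichment over background, and the −log10 p and −log10 q values. The score was not analysed. Summit pileups were recovered from fold and p, and came out whole for 97.5% to 99.7% of peaks. The tolerance was 0.01, widened in proportion for large pileups. No list of the pooled inputs was used.

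Windows were the GENCODE M21 gene body plus 3 kb upstream. Covered length was tested as log2(bp + 1000) over windows with a broad peak in at least 1 library, and highest narrow fold as median-centred log2 over windows with a narrow peak in all 4, with limma 3.58.1 and Benjamini-Hochberg adjustment at 0.05. Windows covered alike in every library, such as that of Sox4, have no spread, which limma offsets from 0. Single values were tested by exact permutation. Python 3.11.15 and R 4.3.3 were used. Named genes are all 10 members, list genes by coverage and the 2 nearest genes to each SoxC gene. Some list genes are not reported here by name. Members and lists were chosen with earlier results of these data known.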

Additional observations from a re-analysis of the deposited data

How the results depend on the processing

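No Sox gene was called for coverage or fold by limma under any alternative tried. The number of windows called was less stable. For coverage it was 5, and became 0 with narrow lists, 83 at a −log10 q of at least 5, 81 over bodies without the upstream 3 kb, 22 with a pseudocount of 200 bp, 1 among protein-coding genes and 0 to 0 leaving out each library. For narrow fold it was 39, and became 95 with broad lists, 24 without centring, 15 among protein-coding genes and 85 to 129 leaving out each library, whose lone partner is then assumed to vary like the other group. A fit without the filter on coverage is not given, as most of its variances were 0. With a replicate block the counts were 0 for coverage (3035 at an unadjusted p under 0.05, against 2476 without it) and 31 for fold. Same-numbered libraries correlated by 0.19 (broad coverage) and 0.21 (narrow fold) in their deviations from group means. The methods give each replicate its own passage and transfection batch without saying that same-numbered libraries of the 2 groups shared one. The block changed no call of a Sox gene.

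The number of Sox genes with separated broad coverage was 0, 2 on the narrow lists and 1 to 4 leaving out each library, with fewer libraries to separate. For highest fold it was 5, and 3 on the narrow lists or after quantile normalization, both chosen after seeing the data. The count on the narrow lists includes Sox5, whose highest peaks lay at unlike places. The neuronal excess over glial genes changed by 4.20 points, by 1.72 on the narrow lists, 1.86 at the stricter q (from a CTR level of 28.2) and 0.455 over bodies. The sign of the log2 change in covered length turned on the narrow lists for Sox12 (-0.038), Sox5 (-0.028) and Sox9 (0.021), and without NPM1 KD replicate 1 for Sox8 (-0.024 to 0.021 leaving out each library). That of narrow fold turned without NPM1 KD replicate 2 for Sox11 (-0.20 to 0.027) and Sox12 (-0.44 to 0.18), and for Sox5 with broad lists (0.058), without CTR replicate 2 and without NPM1 KD replicate 1 (-0.11 to 0.063). The causes were not tested. Depth limits all statements of absence to what passed the peak threshold.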
